A study of Rattus norvegicus with 25 samples.

Results

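The miR-17 cluster, named in full after its first and last hairpins, miR-17 and miR-92a, and the miR-106b-25 cluster are paralogous groups of microRNA (miRNA) hairpins that are each cut from a common precursor transcript. Their members were taken from the sperm miRNA count matrix by name, as every row that begins with rno-miR-17-, rno-miR-18a-, rno-miR-19a-, rno-miR-19b-, rno-miR-20a-, rno-miR-92a-, rno-miR-25-, rno-miR-93- or rno-miR-106b-. This gave 20 of the 562 mature miRNAs, of which 13 passed the filter on low counts and could be tested among 317 miRNAs. The 10 arms by which the clusters are usually known (rno-miR-17-5p, rno-miR-18a-5p, rno-miR-19a-3p, rno-miR-20a-5p, rno-miR-19b-3p and rno-miR-92a-3p, and rno-miR-106b-5p, rno-miR-106b-3p, rno-miR-93-5p and rno-miR-25-3p) are called the main arms here.

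Each hairpin gives a 5p and a 3p arm, and the arm that is retained guides the silencing of mRNAs that pair with its seed, the bases just after the 5′ end. The miR-17 and miR-106b seed family is known for restraining cell-cycle inhibitors such as Cdkn1a, and the miR-92 and miR-25 family for silencing Bcl2l11, a gene that promotes cell death. Both clusters are expressed in mouse male germ cells, and loss of the miR-17 cluster in the germ line is known to impair spermatogenesis.

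Small RNA (smRNA) was sequenced from mature sperm of Sprague-Dawley rats that had self-administered morphine or saline intravenously. Sperm came from the cauda epididymis, the store of mature sperm, after a double swim-up, which selects motile cells. Each library came from 1 of 4 groups. F0_SAL (n = 7) and F0_MOR (n = 7) were saline and morphine males without abstinence, collected when self-administration ended, and F0_ABS-SAL (n = 5) and F0_ABS-MOR (n = 6) were saline and morphine males that were abstinent for 90 days before collection. No genetic modification is given for any group, and the labels number the samples as biological replicates. The abstinent males were also older and further from behavioural testing, and the batch of each library is not given in the sources used here, so timepoint, age and batch cannot be told apart. The libraries are named by a letter, and their short group names were matched to the 4 groups by treatment and by group size.

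The libraries held between 1032386 and 3203211 miRNA counts, with group medians of 1701012 (F0_SAL), 1428308 (F0_MOR), 2334377 (F0_ABS-SAL) and 2134169 (F0_ABS-MOR). No library was a copy of another, since the smallest chi-square per degree of freedom over the 300 pairs was 35.1. One miRNA, the sperm and spermatid miRNA rno-miR-34c-5p, held a mean of 43.3% of the counts in F0_SAL and 33.8% in F0_ABS-SAL, and of 39% in F0_MOR and 34.2% in F0_ABS-MOR. Levels below are CPM, counts relative to the library total after TMM scaling, which sets libraries against each other by their typical miRNA rather than by their total.

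The mature sequences, from RefSeq (assembly GRCr8), show which members share a seed and which the count matrix could confuse. All 20 members were matched by name. The seed, bases 2 to 8, is in capitals in each line. The first 4 members and rno-miR-20b-5p, from the X-chromosome copy of the miR-17 cluster, share the seed AAAGUGC.
rno-miR-17-5p: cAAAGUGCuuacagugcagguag
rno-miR-20a-5p: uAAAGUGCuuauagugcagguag
rno-miR-93-5p: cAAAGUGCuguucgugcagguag
rno-miR-106b-5p: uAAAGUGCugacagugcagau
rno-miR-20b-5p: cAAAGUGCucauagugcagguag
rno-miR-92a-3p and rno-miR-25-3p lie in different clusters and share the seed AUUGCAC, also found in rno-miR-92b-3p, which is encoded elsewhere.
rno-miR-92a-3p: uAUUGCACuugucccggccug
rno-miR-25-3p: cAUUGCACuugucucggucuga
rno-miR-92b-3p: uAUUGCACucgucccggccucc
The miR-19 arms share the seed GUGCAAA and differ by 1 base, U11C from rno-miR-19a-3p to rno-miR-19b-3p, counted from the 5′ end.
rno-miR-19a-3p: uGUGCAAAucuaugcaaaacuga
rno-miR-19b-3p: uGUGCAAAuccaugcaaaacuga
rno-miR-18a-5p, rno-miR-106b-3p and the 3p arms from the 2 miR-17 hairpins have seeds of their own among the members.
rno-miR-18a-5p: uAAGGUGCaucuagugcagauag
rno-miR-106b-3p: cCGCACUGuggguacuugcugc
rno-miR-17-1-3p: aCUGCAGUgaaggcacuugugg
rno-miR-17-2-3p: aCUGCACUgcaagcacuucuuac

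The 6 hairpins of the miR-17 cluster lie on chromosome 15 in the order Mir17, Mir18a, Mir19a, Mir20a, Mir19b1 and Mir92a1. The 3 hairpins of miR-106b-25 lie on chromosome 12 in the order Mir106b, Mir93 and Mir25, inside Mcm7 and on its strand, a gene for a subunit of the replicative helicase. A second copy of the first cluster lies on chromosome X with Mir106a, Mir20b, Mir19b2, Mir92a2 and Mir363. The rat genes Mir17 and Mir106a give the same mature rno-miR-17-5p, and rno-miR-19b-3p and rno-miR-92a-3p likewise each have 1 locus on chromosome 15 and 1 on chromosome X. Counts of these 3 arms are therefore sums over both loci. The 3p arm tells the miR-17 hairpins apart, since rno-miR-17-1-3p has its single locus on chromosome 15 and rno-miR-17-2-3p on chromosome X. The alignment behind the counts allowed 1 mismatch, and rno-miR-19a-3p and rno-miR-19b-3p differ by 1 base, so these arms could share reads, which was not tested. rno-miR-17-5p and rno-miR-20a-5p differ by 2 bases (C1U and C12U).

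The members together held between 1.21% and 3.89% of the miRNA counts of a library. Over all libraries, rno-miR-25-3p made up 38.1% of the members' counts and rno-miR-20a-5p 25.5%, followed by rno-miR-106b-3p (9.45%), rno-miR-93-5p (8.62%), rno-miR-19b-3p (6.97%), rno-miR-17-5p (4.38%), rno-miR-92a-3p (3.42%) and rno-miR-19a-3p (2.33%). By mean level among the 562 miRNAs, rno-miR-25-3p ranked 20, rno-miR-20a-5p 24 and rno-miR-106b-3p 47. All members are 20 to 23 bases long, so their CPM can be set side by side, although the efficiency of library preparation also differs between miRNAs.

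Levels within one cluster were uneven. In F0_SAL, the lowest, median and highest CPM of rno-miR-25-3p were 5159, 10072 and 16631, while its cluster partner rno-miR-93-5p, cut from the neighbouring hairpin, had 1702, 2055 and 3015. In the miR-17 cluster, rno-miR-20a-5p had 4760, 6046 and 10176 in F0_SAL and rno-miR-18a-5p only 28.9, 38 and 66.1. The order of the medians in F0_SAL was rno-miR-25-3p, rno-miR-20a-5p, rno-miR-106b-3p, rno-miR-93-5p, rno-miR-19b-3p, rno-miR-17-5p, rno-miR-92a-3p, rno-miR-19a-3p, rno-miR-106b-5p and rno-miR-18a-5p. The libraries of neighbours in this order overlapped, except between rno-miR-20a-5p and rno-miR-106b-3p and between rno-miR-19a-3p and rno-miR-106b-5p. Within the same hairpin, rno-miR-106b-3p, often annotated as the minor arm, stood far above rno-miR-106b-5p, which had 65.3 to 197 CPM in F0_SAL.

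**Figure D1:**
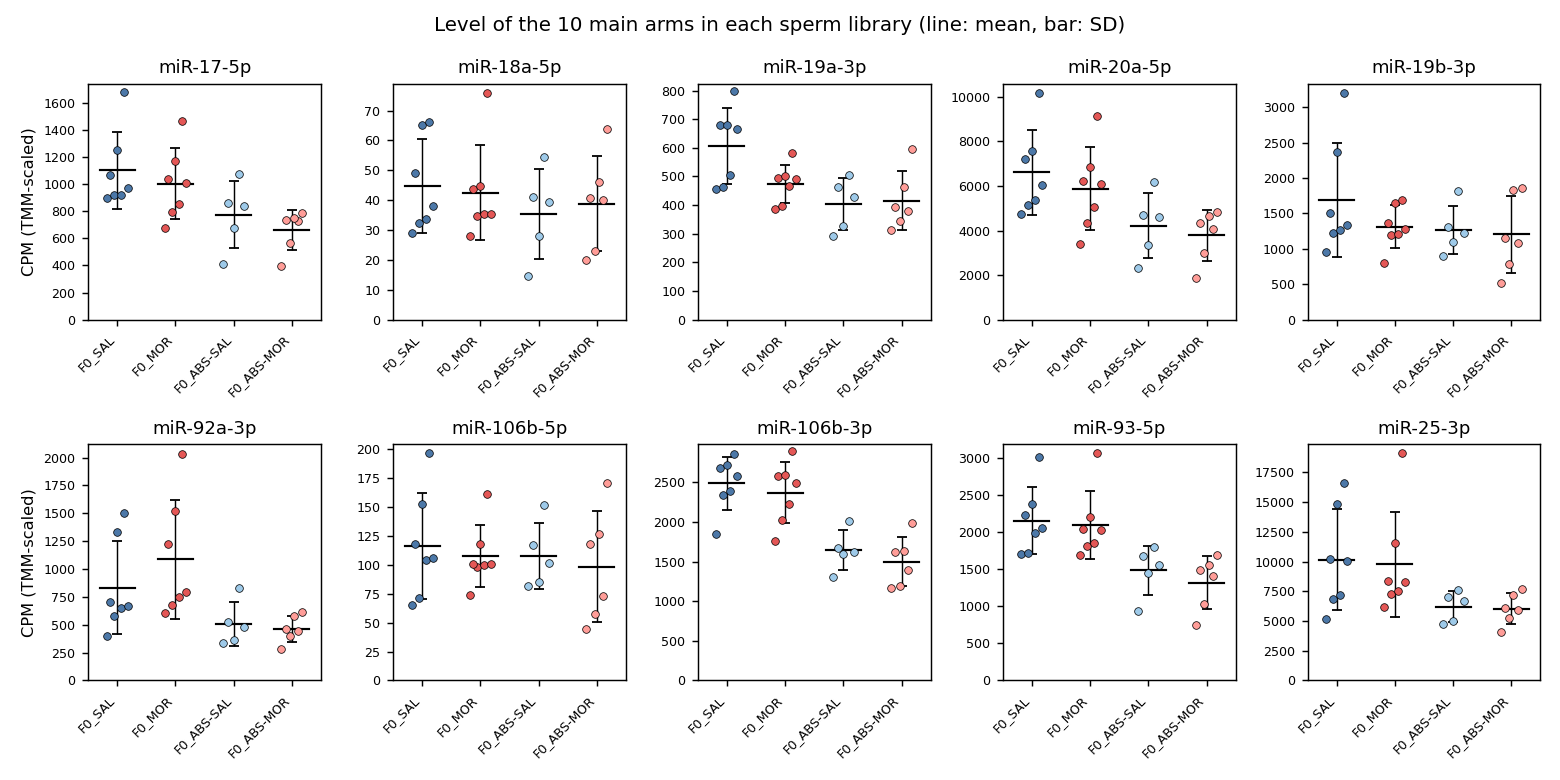
CPM (TMM-scaled, linear axes from 0) of the 10 main arms in each of the 25 libraries by group, with the group mean as a line and the SD as a bar. For rno-miR-93-5p, 4 of 5 F0_ABS-SAL and 6 of 6 F0_ABS-MOR libraries lie below the lowest nonabstinent library of their treatment. For rno-miR-106b-3p this holds for 4 of 5 and 5 of 6, while the groups of rno-miR-18a-5p and rno-miR-106b-5p lie over each other.

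The saline timepoint comparison asked whether the collection timepoint alone, without morphine, went with a difference in the clusters. Differential expression was called where edgeR's quasi-likelihood test gave an adjusted p under 0.1 (Benjamini-Hochberg over all 317 miRNAs) and the log2 fold change lay beyond 0.58 in either direction. In F0_ABS-SAL against F0_SAL, 6 of the 13 tested members were lower and 0 were higher, where 10.7% of all tested miRNAs were called lower and 22.4% higher. The 6 were rno-miR-25-3p and rno-miR-106b-3p of miR-106b-25, and rno-miR-20a-5p, rno-miR-92a-3p, rno-miR-19a-3p and rno-miR-17-1-3p of the miR-17 cluster. The median log2 fold change was -0.53 over the tested members and 0.00 over all tested miRNAs, and 12 of 13 members were below 0 (9 of 13 under scaling by total count alone).

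rno-miR-25-3p, the most abundant member, measured 6642, 7048, 7641, 4768 and 4985 CPM in the 5 F0_ABS-SAL libraries, all below the F0_SAL median of 10072, while the lower part of F0_SAL overlapped them. The arm fell with a log2 fold change of -0.71 (SE 0.27, adjusted p = 0.0489). The call was lost without F0_SAL library F (-0.56, adjusted p = 0.105) or F0_ABS-SAL library R (-0.65, adjusted p = 0.12). rno-miR-106b-3p, from the first hairpin of the same cluster, had a lowest, median and highest CPM of 1852, 2579 and 2864 in F0_SAL and values of 2016, 1310.3, 1627, 1603 and 1674 in F0_ABS-SAL. All F0_ABS-SAL libraries but E lay below every F0_SAL library. It fell with a log2 fold change of -0.60 (SE 0.17, adjusted p = 0.0118), and fell short of the fold threshold without F0_SAL library C (log2 fold change -0.56) or F (-0.58) or F0_ABS-SAL library K (-0.52). rno-miR-93-5p, between them in the cluster, missed the fold threshold with a log2 fold change of -0.53 (SE 0.21, adjusted p = 0.0523), and was called without library P, V, E, K or L, with log2 fold changes from -0.63 to -0.61.

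In the miR-17 cluster, rno-miR-20a-5p had 4760, 6046 and 10176 CPM (lowest, median and highest) in F0_SAL and 3334, 6168, 4699, 2299.6 and 4587 in F0_ABS-SAL. Only library K of the abstinent group lay within the F0_SAL range. The arm fell with a log2 fold change of -0.65 (SE 0.26, adjusted p = 0.0569), and the call was lost without F0_SAL library O (-0.54, adjusted p = 0.107) or F0_ABS-SAL library R (-0.53, adjusted p = 0.157). rno-miR-17-5p, of the same seed, missed the fold threshold with a log2 fold change of -0.51 (SE 0.23, adjusted p = 0.0857), and passed it without library V, K or L, at -0.65 to -0.58.

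rno-miR-19a-3p had 457, 665 and 799 CPM in F0_SAL against 464, 504, 328, 293 and 428 in F0_ABS-SAL, where every library lay below the F0_SAL median. It fell with a log2 fold change of -0.59 (SE 0.19, adjusted p = 0.0265), just past the fold threshold, and was short of it without library C, F, O, L or R, at -0.58 to -0.54. Its near twin rno-miR-19b-3p was not called, with a log2 fold change of -0.42 (SE 0.29, adjusted p = 0.268). rno-miR-92a-3p, at the end of the cluster, had 397, 667 and 1501 CPM in F0_SAL and 478, 527, 827, 334 and 364 in F0_ABS-SAL, with 2 abstinent libraries below all of F0_SAL and F0_SAL libraries F and H above all of F0_ABS-SAL. This last arm fell with a log2 fold change of -0.72 (SE 0.32, adjusted p = 0.0857), and leaving out F0_SAL library F or H or F0_ABS-SAL library K, R or Y ended the call, with adjusted p from 0.116 to 0.201 and log2 fold changes from -0.73 to -0.53. rno-miR-18a-5p, the rarest main arm, was not called (log2 fold change -0.34, SE 0.31, adjusted p = 0.391), nor was rno-miR-106b-5p (log2 fold change -0.12, SE 0.29, adjusted p = 0.779).

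The largest fold change of a member was that of rno-miR-17-1-3p, a low-abundance arm with raw counts between 5 and 43. Its CPM in F0_SAL had a lowest, median and highest value of 13, 16 and 22.6, and the F0_ABS-SAL libraries measured 2.64, 9.38, 7.88, 4.01 and 7.67, so the groups did not overlap on TMM-scaled CPM. As shares of the library total they did, with 25 of 2334377 counts in F0_ABS-SAL library K and 29 of 2805844 in F0_SAL library W. Without overlap in this direction, on TMM-scaled CPM, were 2.21% of all tested miRNAs and 1 of 13 members. The arm was lower with a log2 fold change of -1.40 (SE 0.38, adjusted p = 0.00943), and the call was kept in all 12 fits that left out a library of either group. Over the whole member list, leaving out F0_SAL library F or F0_ABS-SAL library R took the number of members called from 6 to 2.

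The morphine timepoint comparison asked the same of males that had self-administered morphine. In F0_ABS-MOR against F0_MOR, 6 of the 13 tested members were lower and 0 were higher, where 10.1% of all tested miRNAs were called lower and 11% higher. The 6 were rno-miR-25-3p, rno-miR-106b-3p and rno-miR-93-5p of miR-106b-25, and rno-miR-20a-5p, rno-miR-17-5p and rno-miR-92a-3p of the miR-17 cluster. The median log2 fold change was -0.63 over the tested members against 0.00 over all tested miRNAs, with 12 of 13 members below 0 (9 of 13 under scaling by total count alone).

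rno-miR-92a-3p had the largest fold change among the called members. Its lowest, median and highest CPM were 605, 797 and 2030.3 in F0_MOR and 280.2, 453 and 610.3 in F0_ABS-MOR, and only F0_ABS-MOR library I reached into the F0_MOR range. It fell with a log2 fold change of -1.23 (SE 0.31, adjusted p = 0.008). rno-miR-106b-3p had 1766, 2489 and 2895 CPM in F0_MOR and 1171, 1504 and 1983 in F0_ABS-MOR, with only library S within the F0_MOR range, and fell with a log2 fold change of -0.66 (SE 0.16, adjusted p = 0.008). Both calls were kept in all 13 fits that left out a library of either group, with log2 fold changes from -1.33 to -1.01 and from -0.74 to -0.60.

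On TMM-scaled CPM, the groups did not overlap for rno-miR-93-5p, the 1 of 13 members for which this held, and for 1.58% of all tested miRNAs in this direction. As shares of the library total they did overlap for this arm, with 1618 of 1032386 counts in F0_MOR library T and 4128 of 2238779 in F0_ABS-MOR library I. The arm had 1692, 2033 and 3067 CPM in F0_MOR and 747, 1453 and 1685 in F0_ABS-MOR, and fell with a log2 fold change of -0.67 (SE 0.20, adjusted p = 0.0197). It was short of the fold threshold without F0_MOR library G (log2 fold change -0.56) or F0_ABS-MOR library Q (-0.53). rno-miR-25-3p had 6156, 8307 and 19099 CPM in F0_MOR, where library G was the highest, against 4117, 6014 and 7698 in F0_ABS-MOR, where every library lay below the F0_MOR median. Between the groups it fell with a log2 fold change of -0.69 (SE 0.25, adjusted p = 0.0612), and the call was lost without library G (-0.43, adjusted p = 0.216), D (-0.61, adjusted p = 0.125) or Q (-0.62, adjusted p = 0.113).

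The arms rno-miR-20a-5p and rno-miR-17-5p, of 1 seed and 1 cluster, gave close fold changes. rno-miR-20a-5p had 3407, 6109 and 9151 CPM in F0_MOR and 1851, 4198 and 4851 in F0_ABS-MOR, and fell with a log2 fold change of -0.63 (SE 0.24, adjusted p = 0.0689). rno-miR-17-5p had 677, 1011 and 1464 in F0_MOR and 399, 732 and 788 in F0_ABS-MOR, and fell with a log2 fold change of -0.60 (SE 0.22, adjusted p = 0.0578). The abstinent libraries all lay below the F0_MOR median of either arm and overlapped its lower libraries. The first call was lost without library G, U, Q or X (log2 fold changes from -0.59 to -0.47) and the second without B, G, U, Q or X (from -0.57 to -0.47).

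The other main arms were not called in the morphine groups. Log2 fold changes were -0.19 (SE 0.18) for rno-miR-19a-3p, -0.12 (SE 0.27) for rno-miR-19b-3p, -0.13 (SE 0.30) for rno-miR-18a-5p and -0.13 (SE 0.27) for rno-miR-106b-5p. rno-miR-17-1-3p overlapped here (log2 fold change -0.64, SE 0.35, adjusted p = 0.203). The passenger arm rno-miR-25-5p, with 0 to 41 raw counts per library, had a log2 fold change of -1.51 (SE 0.65, adjusted p = 0.102). The 41 counts were in F0_MOR library N, and the other F0_MOR libraries had 2 to 8. With 1 library left out, rno-miR-25-5p passed the filter on low counts in only 6 of 13 fits, with adjusted p from 0.0864 to 0.141. Among these it was called without F0_MOR library B (-1.62, adjusted p = 0.0894) or G (-1.69, adjusted p = 0.0864). It was also called by limma-voom (-1.84, adjusted p = 0.0692). Leaving out library G took the number of members called from 6 to 3, and leaving out Q took it to 2.

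Called lower in both timepoint comparisons, which share no library, were rno-miR-25-3p, rno-miR-20a-5p, rno-miR-106b-3p and rno-miR-92a-3p, 4 of 13 tested members, against 14 of all 317 tested miRNAs (4.42%). The difference between the comparisons was tested as the interaction of treatment and timepoint, and was called for no member and for 0% of all tested miRNAs. A call in only 1 of the comparisons, as for rno-miR-19a-3p, rno-miR-17-1-3p, rno-miR-93-5p and rno-miR-17-5p, therefore does not show that the treatments differed in it.

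**Figure D2:**
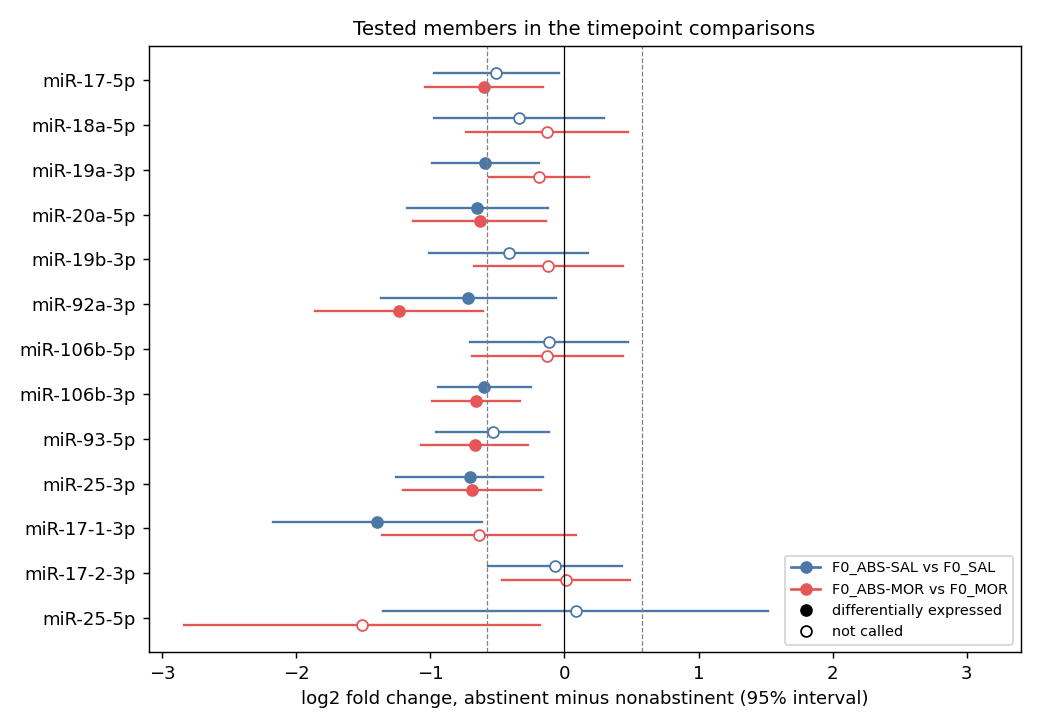
Log2 fold change (abstinent minus nonabstinent, TMM scaling) with its 95% interval for the 13 tested members, in the saline (blue) and morphine (red) timepoint comparisons. Filled points were called differentially expressed, and dashed lines mark the fold threshold of 0.58. All filled points lie to the left of 0, and rno-miR-17-1-3p (-1.40) in saline and rno-miR-92a-3p (-1.23) in morphine lie furthest out among them.

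The number of calls, and the sign of some arms that were not called, depended on how libraries were set against each other. No called member changed sign under the 4 scalings tried. With libraries scaled by total count alone, in which rno-miR-34c-5p weighs most, the median of all tested miRNAs moved to 0.39 in the saline and 0.18 in the morphine comparison, and the median of the tested members to -0.14 and -0.45. One member was then called lower in each, rno-miR-17-1-3p in saline and rno-miR-92a-3p in morphine, and all tested miRNAs split into 110 higher and 1 lower and into 57 higher and 14 lower, against 71 and 34 and 35 and 32 with TMM. Leaving rno-miR-34c-5p out of the total gave medians of 0.17 and 0.09 over all tested miRNAs, with 1 member (rno-miR-17-1-3p) and 2 members (rno-miR-106b-3p and rno-miR-92a-3p) called lower. Under total count alone, rno-miR-18a-5p and rno-miR-106b-5p turned to values above 0 in both comparisons, rno-miR-17-2-3p in saline and rno-miR-19b-3p in morphine.

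A change of scaling moves all miRNAs of a comparison by about the same amount, so the members' median relative to that of all tested miRNAs is no check of scaling. Over the 4 scalings it ran from -0.54 to -0.53 in saline males and from -0.64 to -0.61 in morphine males. Shares of the total show the members without TMM. The summed share of the miR-17 cluster main arms was 0.929 ± 0.228% (SD, n = 7) in F0_SAL and 0.809 ± 0.268% (n = 5) in F0_ABS-SAL, and 0.96 ± 0.269% (n = 7) in F0_MOR and 0.728 ± 0.188% (n = 6) in F0_ABS-MOR. That of rno-miR-106b-5p, rno-miR-93-5p and rno-miR-25-3p was 1.09 ± 0.463% in F0_SAL, 0.881 ± 0.237% in F0_ABS-SAL, 1.18 ± 0.479% in F0_MOR and 0.83 ± 0.114% in F0_ABS-MOR. These shares overlapped between groups.

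**Figure D3:**
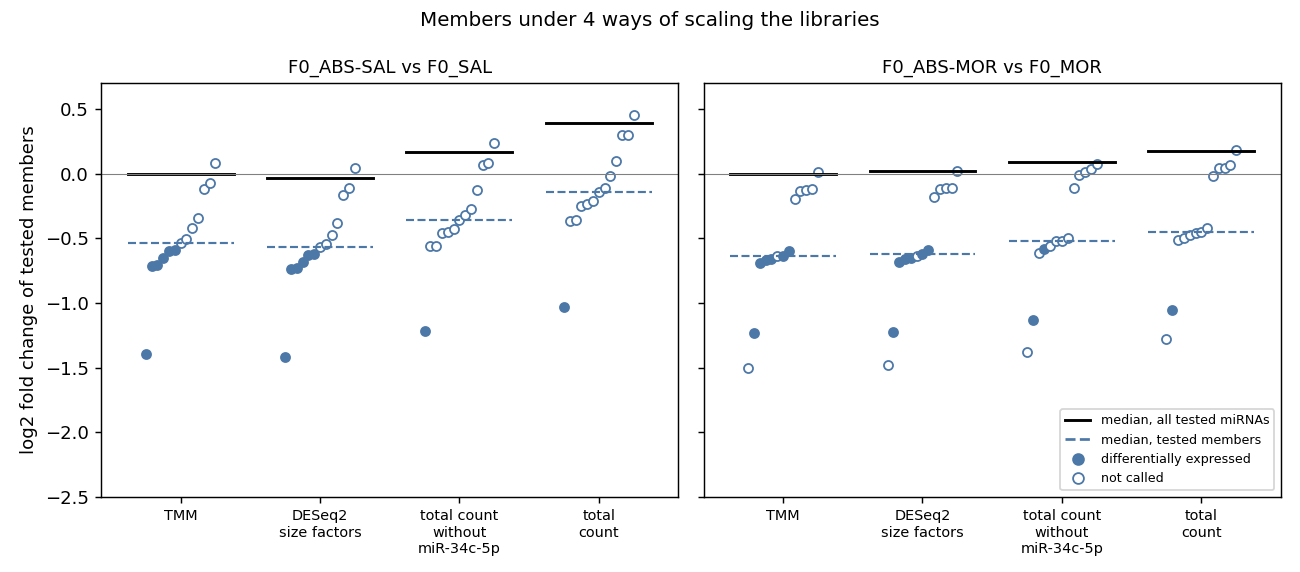
Log2 fold change of the 13 tested members (points, filled where called) in the saline (left) and morphine (right) timepoint comparisons under 4 ways of scaling the libraries, with the median of all tested miRNAs as a black line and the median of the members as a dashed line. Both lines rise together from TMM to total count (from 0.00 to 0.39 and from -0.53 to -0.14 in saline), and fewer points are filled.

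Marker miRNAs of sperm and of other cells were examined in the same comparisons. Of 14 sperm and spermatid miRNAs (the miR-34 and miR-449 families and the testis cluster with miR-741 and miR-881), 13 were tested, 5 were called lower in the saline and 2 in the morphine comparison (10.7% and 10.1% of all tested miRNAs), and their summed CPM ranged over 424399 to 770418 in F0_SAL, 286915 to 412994 in F0_ABS-SAL, 351211 to 529839 in F0_MOR and 199060 to 453028 in F0_ABS-MOR. Each was detected in all 25 libraries except rno-miR-449c-5p, which was at 0 in 24 libraries. Of 4 erythroid miRNAs, 3 were matched and tested (rno-miR-451-5p and both arms of miR-144), 0 were called in saline and 3 lower in morphine, with sums of 929 to 2741, 654 to 1256, 948 to 2372 and 308 to 1291 CPM in the same order of groups. The erythroid list matters here because rno-miR-92a-3p and rno-miR-25-3p are also abundant in red blood cells.

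Epithelial miRNAs (the miR-200 family with miR-141 and miR-429, and miR-205) were called higher for 4 of 6 in saline and 2 of 6 in morphine (22.4% and 11% of all tested miRNAs), with sums of 6416 to 10606, 8536 to 18839.6, 7373 to 11125 and 8599.8 to 17040.2 CPM. Both arms of the endothelial miR-126a were higher in either comparison, with sums of 546 to 783, 708 to 2821, 583 to 732 and 1036 to 1457 CPM. Of 5 leukocyte miRNAs, 0 were called in saline and 1 was lower in morphine, with sums of 743 to 1218, 771 to 1102, 894 to 1360.4 and 769.6 to 1232 CPM. The defining miRNAs of these cells, rno-miR-451-5p, rno-miR-142-3p, rno-miR-200a-3p and rno-miR-126a-3p, had reads in all 25 libraries, and of the other listed miRNAs of these cells rno-miR-155-5p was at 0 in 1 library. In bulk sperm, fewer cells of a type and less RNA per cell cannot be told apart, and the part of other cells in the members' lower levels was not tested.

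Morphine against saline, the question of the study, showed no called member at either timepoint. Between F0_MOR and F0_SAL, edgeR called 0 of 13 tested members and 0% of all tested miRNAs. By edgeR, 0 members but 23 of all 317 had an unadjusted p under 0.05. DESeq2 and limma-voom each gave 1 member under 0.05 and called 0 members, and over all miRNAs they called 0 and 1. The study itself reported 1 mature miRNA, rno-miR-150-5p, as differentially expressed here. The tested members' log2 fold changes ran from -0.37 for rno-miR-19b-3p to 1.28 for rno-miR-25-5p. The smallest unadjusted p were those of rno-miR-19a-3p and rno-miR-25-5p. rno-miR-19a-3p had 457, 665 and 799 CPM (lowest, median and highest) in F0_SAL and 387, 491 and 581 in F0_MOR (log2 fold change -0.36, SE 0.18, adjusted p = 0.623), and its groups overlapped. rno-miR-25-5p had a log2 fold change of 1.28 (SE 0.64, adjusted p = 0.623). For this arm F0_MOR library N alone had 41 counts, and no other F0_MOR or F0_SAL library had more than 8. rno-miR-92a-3p, lower after abstinence, had a log2 fold change of 0.39 (95% interval -0.20 to 0.97) between F0_MOR and F0_SAL.

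The intervals show what the treatment comparisons could leave undetected. For the main arms between F0_MOR and F0_SAL, the 95% intervals of the log2 fold change reached from -0.90 (rno-miR-19b-3p) to 0.97 (rno-miR-92a-3p), and the narrowest main arm, rno-miR-106b-3p, had -0.38 to 0.24. Under total count alone only 3 of the 13 tested members stayed below 0 in this comparison, against 11 under TMM, so no direction can be read from it. Between F0_ABS-MOR and F0_ABS-SAL, 0 of 13 members and 0% of all tested miRNAs were called, and 0 members but 4 of all 317 had an unadjusted p under 0.05 by edgeR, with 0 members also by DESeq2 and limma-voom. The tested members ran from -0.31 for rno-miR-25-5p to 0.55 for rno-miR-17-1-3p, and the 2 most abundant gave intervals of -0.60 to 0.52 (rno-miR-25-3p) and -0.69 to 0.38 (rno-miR-20a-5p). For the interaction, 0 members but 10 of all tested miRNAs were under 0.05 unadjusted by edgeR, and no member was under 0.05 by DESeq2 or limma-voom. The smallest member p by edgeR was 0.108, for rno-miR-25-5p.

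The chromosome 15 and chromosome X copies of miR-17 share their 5p arm, and their 3p arms gave a measure of them that does not depend on scaling. With 2 added to each count, the ratio of rno-miR-17-2-3p (chromosome X) to rno-miR-17-1-3p (chromosome 15) ranged from 2.74 to 7.68 over the F0_SAL libraries (median 4.2) and measured 28.6, 5.56, 7.04, 15.2 and 13.2 in F0_ABS-SAL libraries E, K, L, R and Y. In the morphine groups the ratio ranged from 2.85 to 8.56 in F0_MOR (median 6.24) and from 4.26 to 25.7 in F0_ABS-MOR (median 7.32). rno-miR-17-2-3p itself had 61.3, 85.8 and 120.0 CPM in F0_SAL and 55.5, 75.2 and 109 in F0_ABS-SAL (log2 fold change -0.07, SE 0.24, adjusted p = 0.831, but 0.30 under total count alone). The groups of rno-miR-17-2-3p overlapped, while the counts of rno-miR-17-1-3p were 5 in library E, 8 in R and 24 or 25 in the other F0_ABS-SAL libraries.

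The ratio was chosen because these arms had been seen to differ, so it is given as a description with no test. On the log2 scale it was 3.55 ± 0.94 (SD, n = 5) in F0_ABS-SAL and 2.22 ± 0.49 (n = 7) in F0_SAL, a difference of 1.34. It was 3.06 ± 0.99 (n = 6) in F0_ABS-MOR and 2.41 ± 0.54 (n = 7) in F0_MOR, a difference of 0.65. The differences between treatments were 0.19 without abstinence and -0.50 after it. Omitting single libraries, the saline difference lay between 1.01, without library E, and 1.61, without library K.

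**Figure D4:**
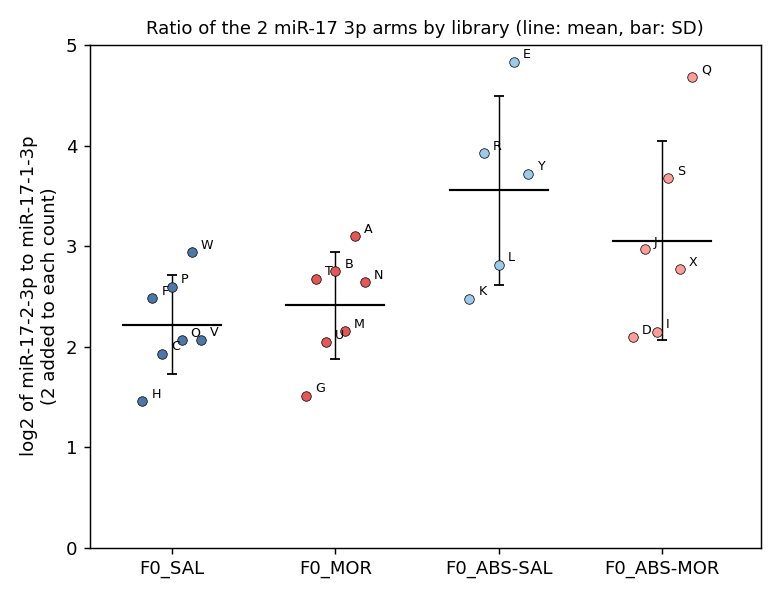
Log2 of the ratio of rno-miR-17-2-3p to rno-miR-17-1-3p (2 added to each count) in each library by group, with library letters, the group mean as a line and the SD as a bar. Libraries E and Q, with 5 counts of rno-miR-17-1-3p each, stand highest, and F0_ABS-SAL libraries K and L lie within the F0_SAL range.

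The ratio of 5p to 3p counts was compared for the 2 member hairpins with both arms tested, among 78 hairpins. In miR-25 the 3p arm dominated, with a mean log2 ratio of 5p to 3p of -11.29 ± 0.69 (SD) in F0_SAL and -11.05 ± 1.27 in F0_ABS-SAL, and of -10.44 ± 1.26 in F0_MOR and -11.14 ± 1.40 in F0_ABS-MOR. In miR-106b it was -4.48 ± 0.72 and -3.95 ± 0.55 in the saline groups and -4.46 ± 0.49 and -4.04 ± 1.00 in the morphine groups, nonabstinent first, so that rno-miR-106b-3p was the larger arm in all 25 libraries. Neither hairpin was called by limma in any of the 4 comparisons, where 0% of all hairpins were called in the saline timepoint, 7.69% in the morphine timepoint and 0% in both treatment comparisons. For miR-106b the log2 difference was 0.53 (SE 0.40, adjusted p = 0.713) in the saline and 0.42 (SE 0.38, adjusted p = 0.696) in the morphine timepoint comparison, and for miR-25 0.23 (SE 0.62, adjusted p = 0.924) and -0.70 (SE 0.59, adjusted p = 0.664).

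The 7 members that could not be tested were minor arms. rno-miR-18a-3p had reads in 21 libraries (156 counts in all) and rno-miR-93-3p in 22 (109 counts). rno-miR-20a-3p had reads in 10 libraries (31 counts), rno-miR-92a-1-5p in 9 (33 counts), rno-miR-19a-5p in 6 (16 counts) and rno-miR-19b-1-5p in 4 (9 counts). rno-miR-92a-2-5p, the 5p arm of the chromosome X hairpin, had 2 counts in 1 F0_MOR library. The matrix holds no count of 1, so a value of 0 may hide 1 or more reads, and no levels are drawn from these arms.

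The relatives of the clusters were the rest of the chromosome X cluster, miRNAs of the same seeds, and rno-miR-32-3p and rno-miR-92b-5p. These last are opposite arms from the same hairpins, with seeds that no member has. Of the 11 relatives, 8 were in the matrix and 5 were tested, among them rno-miR-32-3p. None was called in the saline timepoint comparison, and 1 was lower in the morphine one, against the 10.7% and 10.1% of all tested miRNAs given above. This was rno-miR-92b-3p, of the rno-miR-92a-3p and rno-miR-25-3p seed, at 5.67, 13.6 and 31.8 CPM (lowest, median and highest) in F0_MOR and 2.37, 5.02 and 7.99 in F0_ABS-MOR (log2 fold change -1.54, SE 0.42, adjusted p = 0.0141). In saline its log2 fold change was -0.80 (SE 0.42, adjusted p = 0.143). The chromosome X arms rno-miR-20b-5p and rno-miR-363-3p had log2 fold changes of -0.66 (SE 0.32, adjusted p = 0.118) and -0.44 (SE 0.18, adjusted p = 0.0569) in saline, and -0.40 and -0.27 in morphine (adjusted p = 0.396 and 0.264). rno-miR-32-5p, of the rno-miR-92a-3p seed but from chromosome 5, had -0.27 and 0.25.

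Within groups, the members varied together along lines that crossed the clusters. With each group's mean removed, log2 CPM over the 25 libraries correlated with a median Pearson's r of 0.58 over the 15 pairs of miR-17 cluster main arms, 0.18 over the 6 pairs of miR-106b-25 and 0.42 over the 24 pairs between clusters, against 0.01 over all pairs of tested miRNAs. All points share the library and its scaling factor, so these values are a description. Pairs of 1 seed had a median r of 0.70 (8 pairs) and pairs of different seeds 0.40 (37 pairs). rno-miR-17-5p and rno-miR-20a-5p had r = 0.96, and rno-miR-93-5p of the other cluster stood with them at 0.93 for either arm. The seed did not order all pairs. rno-miR-106b-5p, of the same seed, had only 0.46, 0.47 and 0.43 with these 3 arms, and 0.69 with rno-miR-18a-5p of another seed. rno-miR-19b-3p had 0.81 with rno-miR-20a-5p of another seed and 0.58 with rno-miR-19a-3p of its own. rno-miR-25-3p correlated most with rno-miR-92a-3p (r = 0.82), which has its seed, and less with its cluster partners rno-miR-93-5p (0.51) and rno-miR-106b-3p (0.39). The arms of miR-106b ran against each other (r = -0.70).

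**Figure D5:**
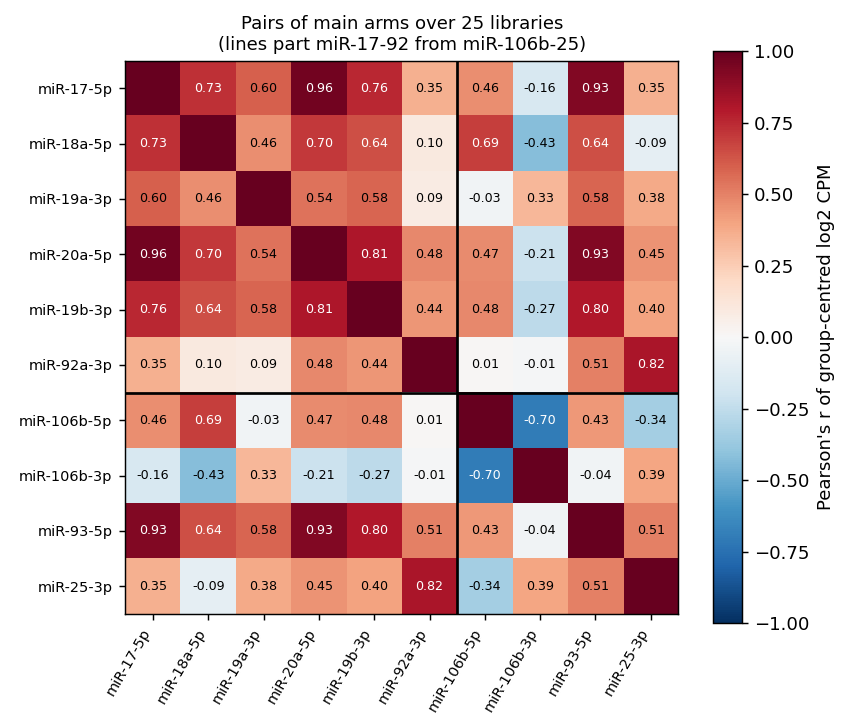
Pearson's r of group-centred log2 CPM over 25 libraries for each pair of main arms, with black lines between the miR-17 cluster (first 6) and miR-106b-25 (last 4). The block of rno-miR-17-5p, rno-miR-20a-5p and rno-miR-93-5p holds values of 0.93 to 0.96, the pair of rno-miR-25-3p and rno-miR-92a-3p has 0.82, and the row of rno-miR-106b-3p runs from -0.70 to 0.39.

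Spread within groups was close to that of the other miRNAs. The SD of log2 CPM within groups was 0.48 as the median of the tested members and 0.49 as the median of all tested miRNAs, from 0.24 for rno-miR-106b-3p to 0.90 for rno-miR-25-5p. Single libraries stood out across several arms. In F0_MOR, library G was the highest for 7 of the 10 main arms and T the lowest for 5, and in F0_SAL library O was the highest for 5 and P the lowest for 4. In F0_ABS-SAL, library K was the highest for 7 and R the lowest for 9, and in F0_ABS-MOR library I was the highest for 6 and Q the lowest for 6.

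The miRNAs most like the clusters were named by correlation of their group-centred log2 CPM over 25 libraries with the mean of the cluster's main arms, rno-miR-106b-3p left out. For the miR-17 cluster they were rno-miR-20b-5p (r = 0.84), rno-miR-34b-5p (0.83), rno-miR-340-5p (0.77), rno-miR-883-3p (0.76) and rno-miR-465-3p (0.76). For miR-106b-25 they were rno-miR-532-5p (0.80), rno-miR-598-3p (0.74), rno-miR-30e-3p (0.74), rno-miR-34b-5p (0.71) and rno-miR-20b-5p (0.70). The sperm miRNA rno-miR-34c-5p had r = 0.74 and 0.66 with the clusters, the leukocyte rno-miR-142-3p 0.63 and 0.56, the erythroid rno-miR-451-5p 0.07 and 0.12 and the epithelial rno-miR-200a-3p -0.46 and -0.37. These values are for cluster means, with which rno-miR-92a-3p (0.57) and rno-miR-25-3p (0.54), each with its own cluster, correlated only in part. How either arm correlated with rno-miR-451-5p is not given.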

How the data were processed

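The authors prepared small RNA libraries with the NEBNext kit, trimmed and quality-filtered the forward reads, aligned them to the rat genome (rn6, per the submitters' processing notes, which also name DESeq2) and counted mature miRNAs of miRBase with sRNAbench. The deposited values are these raw read counts, whole numbers per miRNA and library, with 2 as the smallest count above 0. The supplement sets a minimum of 2 reads and does not state whether this held per read sequence or per miRNA. How many reads were left out of a low count is therefore not known. The study's supplement gives a seed alignment over 20 bases with 1 mismatch allowed.

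Members were the miRNAs whose names carry the cluster prefixes. The members, the marker and relatives lists and the rule for naming genes (every member, the listed relatives, and the 5 miRNAs outside the members most correlated with each cluster) were chosen with earlier results of these data known. The ratio of the miR-17 3p arms and the scaling without rno-miR-34c-5p were chosen after the values had been seen. Libraries were assigned to groups by treatment name and by group size, the only match of 7, 7, 5 and 6 libraries.

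All 4 groups were fitted in 1 model with edgeR 4.0.16 (quasi-likelihood test, TMM scaling, filterByExpr, R 4.3.3), with Benjamini-Hochberg adjustment over 317 miRNAs, and calls needed a log2 fold change beyond 0.58 and an adjusted p under 0.1. SE were derived from the fold change and its F statistic, and CPM are TMM-scaled. Arm ratios, with 2 added to each count, were tested with limma 3.58.1. The scripts were tested on simulated data. Alternatives were DESeq2 1.42.0, limma-voom, other scalings, filters and thresholds, the groups compared alone, and each library left out. The precision rests on 1032386 to 3203211 counts per library, and p-values measure the spread between libraries. The deposited table of other noncoding RNA was not used.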

Additional observations from a re-analysis of the deposited data

Results flagged for a closer look

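Of 60 checks of a group for a library far from the others, 1 stood out, where chance gives about 1 in 20. The log2 CPM of rno-miR-17-1-3p in F0_ABS-MOR library Q was 1.82, with the nearest of the other 5 libraries at 3.31, a gap of 0.73 of the group's range. Library Q held 5 counts of this arm, and it was also the lowest F0_ABS-MOR library for 6 of the 10 main arms.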

How the results depend on the processing

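The number of members called changed most with scaling and with single libraries. In F0_ABS-SAL against F0_SAL, 6 members were called, against 1 under total count alone, 1 with at least 10 counts in every library, 1 with total count without rno-miR-34c-5p and 3 with limma-voom. Leaving out 1 library at a time gave 2 to 8. In F0_ABS-MOR against F0_MOR, 6 were called, against 1 under total count alone, 2 with total count without rno-miR-34c-5p and 3 at an adjusted p under 0.05, and 2 to 6 with 1 library left out. The causes were not tested. No alternative called a member in either treatment comparison or in the interaction.

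Of single fold changes with 1 library left out, 304 kept direction and side of the threshold, 31 lost the call, 10 gained one and 16 turned sign. Under the other alternatives 185 kept both, 32 lost the call, 1 gained one and 13 turned sign. The calls of rno-miR-17-1-3p in saline and rno-miR-92a-3p in morphine held in every setting that could be fitted. Signs turned only for arms that were not called, most of them near 0, though rno-miR-18a-5p in saline stood at -0.34. In saline, rno-miR-17-2-3p had 0.30 under total count alone, 0.0088 with at least 10 counts in every library and 0.068 without rno-miR-34c-5p in the total, rno-miR-106b-5p 0.30 and 0.081 (total count with and without rno-miR-34c-5p), rno-miR-18a-5p 0.10 (total count), and rno-miR-25-5p -0.085 (limma-voom). In morphine, rno-miR-19b-3p had 0.046 and 0.014 and rno-miR-106b-5p 0.069 and 0.035 (total count with and without rno-miR-34c-5p), rno-miR-18a-5p 0.049 (total count) and rno-miR-17-2-3p -0.11 (limma-voom). With 1 library left out, the ranges that crossed 0 were, in saline, -0.26 to 0.039 (rno-miR-17-2-3p), -0.27 to 0.021 (rno-miR-106b-5p) and -0.059 to 0.26 (rno-miR-25-5p), and in morphine -0.30 to 0.063 (rno-miR-19b-3p), -0.14 to 0.15 (rno-miR-17-2-3p), -0.34 to 0.042 (rno-miR-106b-5p) and -0.33 to 0.046 (rno-miR-18a-5p).

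No paired analysis was possible because the libraries carry letters and no replicate number. The log2 ratio of the miR-17 3p arms differed by 1.43 in saline with 0.5 added to each count and by 1.34 with 2 added.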

Other observations

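Ratios between members within a library do not depend on the scaling of libraries. Those with rno-miR-17-5p, rno-miR-19b-3p or rno-miR-92a-3p mix the chromosome 15 and chromosome X loci. Within the miR-17 cluster, the ratio of rno-miR-20a-5p to rno-miR-17-5p had medians of 6.06 in F0_SAL and 5.54 in F0_ABS-SAL, and of 6.03 in F0_MOR and 5.65 in F0_ABS-MOR, and that of rno-miR-19b-3p to rno-miR-19a-3p 2.5 and 3.07 in the saline groups and 2.71 and 2.79 in the morphine groups, nonabstinent first. The ratio of rno-miR-92a-3p to rno-miR-19b-3p, which are neighbours on both chromosome 15 and chromosome X, had medians of 0.502 in F0_SAL and 0.367 in F0_ABS-SAL, and of 0.853 in F0_MOR and 0.387 in F0_ABS-MOR. Within miR-106b-25, the ratio of rno-miR-25-3p to rno-miR-93-5p had medians of 4.04 and 4.27 in the saline groups and 4.13 and 4.89 in the morphine groups. These ratios were not tested.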
